A study of Mus musculus with 6 samples.

Results

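The heat shock proteins and their DnaJ co-chaperones were described in whole retinas of DBA/2J mice, taken as every probe set whose single gene symbol begins with Hspa, Hspb, Hspd, Hspe, Hsph, Hsp90 or Dnaj, leaving out Hspbap1. These were 170 probe sets of 71 genes, among 18193 genes named singly by a probe set of the array. Of these, 120 probe sets of 59 genes passed a filter on low signal, which asked the third highest of 6 values to reach 4 on the log2 scale. DBA/2J is an inbred strain in which intraocular pressure rises with age and ganglion cells are lost. The groups were 3 retinas of female DBA/2J mice at 8 months, with last pressures of 25.3, 26.5 and 30.4 mmHg, and 3 retinas of female DBA/2J mice at 3 months, with last pressures of 19.1, 15.3 and 18.2 mmHg. Each retina came from a separate animal and filled 1 Affymetrix array, so age and pressure differed together, and the arrays hold no second strain. The older retinas 2 and 3 were right eyes, and the other 4 retinas were left eyes.

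Heat shock proteins are molecular chaperones, which hold, fold or unfold other proteins. HSP70 proteins bind exposed stretches of a client in a cycle driven by ATP; J-domain proteins, named Dnaj, bring clients and start the cycle, and exchange factors such as the HSP110 proteins end it. HSP90 finishes the folding of kinases and receptors, the mitochondrial chaperonin encloses its clients, and small heat shock proteins hold unfolded proteins until the others take over. In the retina this machinery handles a heavy load of newly made photoreceptor protein, and heat shock proteins of neurons and glia have long been studied in glaucoma and light damage.

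The retinal label held against its markers. The mean log2 signal of 7 rod and cone markers lay between 11.12 and 11.21 at 8 months and between 11.24 and 11.32 at 3 months. These means were thus lower at 8 months without overlap. The log2 of the summed signals of the same markers overlapped, at 15.131, 15.150 and 15.150 at 8 months and 15.166, 15.235 and 15.149 at 3 months. Single genes differed, 8 months minus 3 months, by -0.44 for Gnat2 to 0.08 for Gnat1, the only one that was higher. Of the blood genes 0 of 2 passed the filter, and of the skeletal muscle genes 0 of 5. The 12 lens markers, 8 of them measured, averaged 8.02, 3.76 and 4.15 in the older retinas numbered 1, 2 and 3, against 5.05, 4.15 and 9.34 in the younger ones, so 8-month retina 1 and 3-month retina 3 stood apart as crystallin-rich. Reactive glia markers, 6 of 6 measured, averaged 6.06, 6.99 and 6.91 at 8 months and 5.49, 5.84 and 5.82 at 3 months, without overlap. Pigment epithelium markers, 4 of 5 measured, lay between 4.50 and 5.74 at 8 months and between 4.01 and 5.90 at 3 months. Microglia and macrophage markers, 5 of 7 measured, averaged 5.35, 5.40 and 5.42 at 8 months and 4.93, 4.93 and 4.98 at 3 months, also without overlap. The 4 Mueller glia markers averaged 11.34, 11.28 and 11.24 at 8 months and 11.14, 11.23 and 11.11 at 3 months, again without overlap. Markers of bipolar, amacrine and ganglion cells, 6 of 7 measured, overlapped. They averaged 9.94, 9.99 and 10.02 at 8 months and 10.09, 10.02 and 9.98 at 3 months. This mean joins genes that differed in direction. Pou4f1 was lower at 8 months without overlap, by -0.26 on the log2 scale, and Pax6 higher without overlap, by 0.23. Nefl, Thy1 and Slc6a9 differed by -0.13, -0.12 and -0.07 and Prkca by 0.08, with overlapping ages. The part of these cells in the chaperone values was not tested beyond the fits without both crystallin-rich retinas given below, and in whole tissue fewer cells of a type and less RNA per cell cannot be told apart.

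The promoters are shown because heat shock factor, the activator of the inducible chaperones, binds inverted repeats of GAA, and because endoplasmic reticulum chaperones carry an element of their own. Among the 71 genes, 58 had a RefSeq promoter of GRCm38.p6, reaching from 250 bases before the start to 50 after it. A repeat pair, GAANNTTC or TTCNNGAA, each of which reads the same on both strands, lay in the promoter of 16 of the 58 genes, and in 15.1% of all 32851 promoters. A gene was counted if any of its promoters held the letters, and some genes had several promoters. The share over all is of single promoters, so the gene counts and shares are in unlike units, here and for the motifs below. The triple repeat, GAANNTTCNNGAA or TTCNNGAANNTTC, lay in 4 of the 58 genes and in 0.603% of all promoters; these were Hspd1, Hspe1, Hsph1 and Dnajb6. The triple and the endoplasmic reticulum element were searched after the values were seen. The triple contains the pair, so these genes are counted for both. Hspd1 and Hspe1 are neighbours on chromosome 1 and hold the same counts, 3 pairs and 2 triples. The same stretch may thus be counted for each of them, here and in the medians below. The 4 promoters below hold the pair, in capitals, and belong to genes whose values differ in direction in the results: on their brightest probe sets, Hspa1b and Hsph1 stood higher at 8 months and Hspe1 and Hspb6 lower.
Hspa1b, chr17:34959189-34959488, minus strand: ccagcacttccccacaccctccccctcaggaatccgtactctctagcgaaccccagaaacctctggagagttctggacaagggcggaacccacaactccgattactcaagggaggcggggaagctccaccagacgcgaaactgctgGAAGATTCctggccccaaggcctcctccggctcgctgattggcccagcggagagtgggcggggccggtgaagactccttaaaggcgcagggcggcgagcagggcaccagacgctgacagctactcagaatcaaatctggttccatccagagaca
Hsph1, chr5:149636266-149636565, minus strand: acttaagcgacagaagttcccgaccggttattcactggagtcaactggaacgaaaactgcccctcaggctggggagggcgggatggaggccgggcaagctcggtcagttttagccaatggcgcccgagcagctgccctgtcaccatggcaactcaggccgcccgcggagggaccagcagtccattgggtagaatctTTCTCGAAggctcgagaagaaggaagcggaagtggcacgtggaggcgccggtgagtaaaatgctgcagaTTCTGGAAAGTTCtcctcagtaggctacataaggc
Hspe1, chr1:55087898-55088197, plus strand: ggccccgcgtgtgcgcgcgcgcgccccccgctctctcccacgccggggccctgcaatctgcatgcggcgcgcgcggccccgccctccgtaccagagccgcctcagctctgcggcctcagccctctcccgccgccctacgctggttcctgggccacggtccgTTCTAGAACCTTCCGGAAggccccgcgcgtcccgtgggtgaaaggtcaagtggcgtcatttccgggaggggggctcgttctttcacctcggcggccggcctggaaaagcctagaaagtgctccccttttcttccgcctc
Hspb6, chr7:30553051-30553350, plus strand: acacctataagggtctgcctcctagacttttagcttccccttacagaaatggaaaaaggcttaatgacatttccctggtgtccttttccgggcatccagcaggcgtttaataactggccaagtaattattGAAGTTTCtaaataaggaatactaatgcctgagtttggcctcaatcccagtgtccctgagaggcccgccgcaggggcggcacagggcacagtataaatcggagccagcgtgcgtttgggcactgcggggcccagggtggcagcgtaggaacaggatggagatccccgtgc

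The element of endoplasmic reticulum stress, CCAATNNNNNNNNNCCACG on either strand, lay in 3 of the 58 genes and in 0.119% of all promoters. These were Hsp90b1 with 2 copies, Hspa5 and Dnajc3, which make chaperones of the same compartment and are shown with the element in capitals.
Hsp90b1, chr10:86705395-86705694, minus strand: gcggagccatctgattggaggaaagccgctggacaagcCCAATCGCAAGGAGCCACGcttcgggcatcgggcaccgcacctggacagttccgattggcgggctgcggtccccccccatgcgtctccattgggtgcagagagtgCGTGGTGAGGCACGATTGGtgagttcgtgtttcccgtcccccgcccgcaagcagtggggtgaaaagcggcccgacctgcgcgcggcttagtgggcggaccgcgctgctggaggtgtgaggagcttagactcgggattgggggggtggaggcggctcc
Hspa5, chr2:34771840-34772139, plus strand: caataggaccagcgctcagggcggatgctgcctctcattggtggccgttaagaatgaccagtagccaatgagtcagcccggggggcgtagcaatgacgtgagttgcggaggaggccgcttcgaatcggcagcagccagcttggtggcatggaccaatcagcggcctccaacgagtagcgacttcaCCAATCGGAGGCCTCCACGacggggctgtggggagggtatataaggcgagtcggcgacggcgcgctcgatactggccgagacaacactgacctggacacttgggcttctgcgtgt
Dnajc3, chr14:118937682-118937981, plus strand: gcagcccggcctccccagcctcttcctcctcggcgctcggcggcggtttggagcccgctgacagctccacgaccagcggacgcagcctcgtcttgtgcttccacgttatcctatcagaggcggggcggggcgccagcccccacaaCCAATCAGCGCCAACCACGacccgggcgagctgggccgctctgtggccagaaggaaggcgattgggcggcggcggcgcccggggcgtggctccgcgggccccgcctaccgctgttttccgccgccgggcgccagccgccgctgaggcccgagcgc

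Among the 47 measured genes with a promoter, the 13 holding a repeat pair had a median log2 difference, 8 months minus 3 months, of 0.03, with 7 higher, and the 34 without it had a median of -0.05, with 13 higher. The 4 with the triple repeat had a median of -0.0054, with 2 higher, and the 43 without it had a median of -0.027, with 18 higher. The 3 genes with the endoplasmic reticulum element had a median of 0.16, with 3 higher, and the 44 without it had a median of -0.060, with 17 higher. One of these 3, Dnajc3, differed by 0.03 ± 0.11 (SE, n = 3 each) and changed sign in 4 alternatives. These matches describe letters in 1 window and are not binding sites. Measured genes without a promoter entry are left out of these medians. Among them are Hspa8, Hsp90aa1 and Dnajc11, which differed by 0.20, 0.33 and -0.35.

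No heat shock or DnaJ gene passed the test between ages. Each gene was read by its measured probe set of highest mean signal, and limma, adjusted by the Benjamini-Hochberg method over all 20973 measured probe sets, called 0 of 59 genes, against 0.00891% of all 11219 measured genes. The smallest adjusted p among the 59 was 0.183. An unadjusted limma p under 0.05 was found for 5 genes higher at 8 months (Hspa2, Hspa1b, Hspa8, Hsp90aa1 and Dnajb9), where the share over all genes was 3.58%, and for 2 lower (Hspb6 and Dnajc11), where it was 11.5%. All 3 older retinas lay above all 3 younger ones for 7 genes, against 6.05% of all genes, and below them for 6 genes, against 16.9%. The median log2 difference of the 59 was -0.015, beside -0.058 over all measured genes. The split was 27 higher and 32 lower, against 36.5% higher among all genes, and it was 33 and 26 after quantile normalization, 35 and 24 after median centring and 34 and 25 after cyclic loess, where 45.3%, 55.6% and 46.6% of all genes were higher. At the unadjusted threshold the same scalings gave 6 higher and 1 lower, 8 and 1, and 7 and 1. The shares of all genes moved as well, to 5.20% higher and 7.18% lower, 8.54% and 5.03%, and 5.63% and 6.95%. The 5 higher became 2 without probe sets that can match more than 1 transcript, 2 without both crystallin-rich retinas and 1 with eye side as a covariate.

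Among 21 measured heat shock genes, 12 were higher at 8 months with a median log2 difference of 0.04, and among 38 measured DnaJ genes, 15 were higher with a median of -0.05. The HSP70 and HSP110 class had 8 of 12 higher with a median of 0.14, the Hspb symbols 2 of 5 with -0.02, DnaJ A 2 of 4 with -0.05, DnaJ B 4 of 9 with -0.01 and DnaJ C 9 of 25 with -0.08. The 2 higher Hspb genes were Hspb8 and Hspb2, by 0.07 and 0.02. The Hspb median is the value of Hspbp1, an HSP70 exchange factor and no small heat shock protein. Both measured HSP90 genes were higher and both chaperonin genes were lower; of these, Hspd1 was higher after each of the 3 scalings. The scalings gave 14, 15 and 15 of the 21 heat shock genes higher and 19, 20 and 19 of the 38 DnaJ genes, while 10 and 14 were higher without both crystallin-rich retinas.

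**Figure D1:**
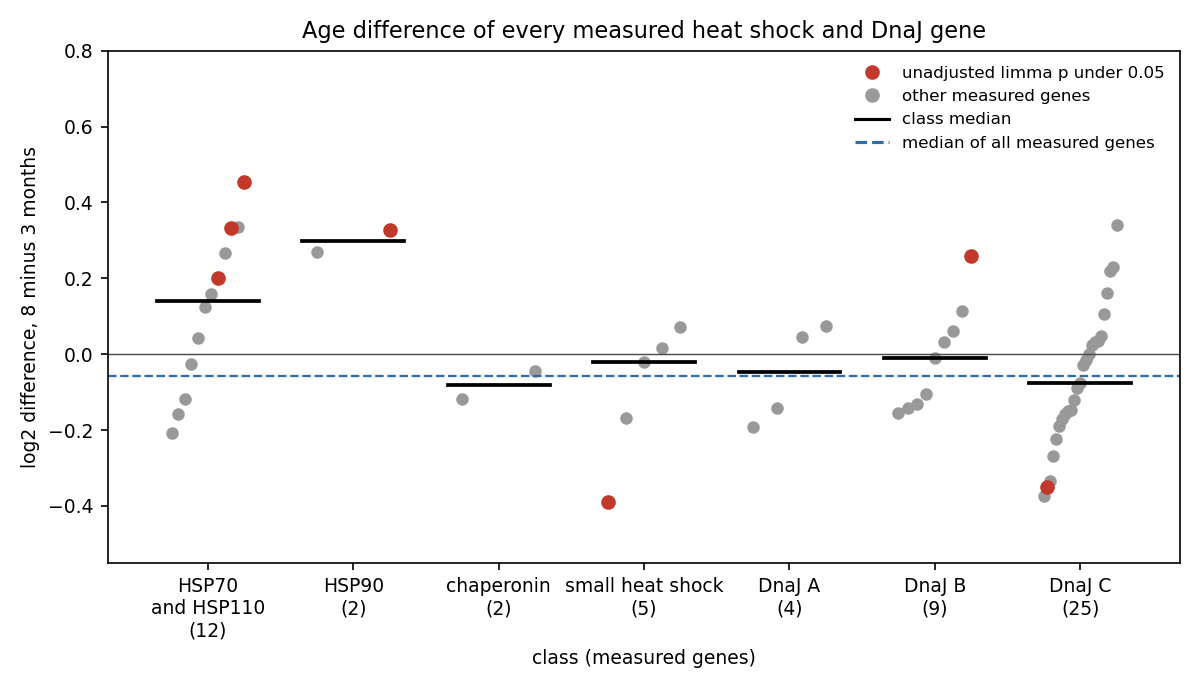
The log2 difference, 8 months minus 3 months, of all 59 measured genes by class, 1 point per gene, with red points for an unadjusted limma p under 0.05. The class median bar lies highest for HSP90, at 0.30, and for HSP70 and HSP110, at 0.14; the dashed line is the median of all measured genes at -0.058, and the DnaJ classes and the chaperonin lie near it.

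Class means were also followed in single retinas, as log2 distances from the 3-month mean. The HSP70 and HSP110 class stood at 0.06, 0.14 and 0.15 at 8 months and at 0.09, 0.02 and -0.10 at 3 months, so the ages overlapped. The HSP90 class stood at 0.30, 0.27 and 0.33 at 8 months and at -0.06, 0.24 and -0.18 at 3 months. Its younger retinas spread widely and all lay below the narrow older group. DnaJ C stood at -0.07, -0.07 and -0.04 at 8 months and at 0.03, -0.02 and -0.01 at 3 months. All measured genes together stood at -0.06, -0.06 and -0.04 at 8 months and at 0.00, -0.01 and 0.01 at 3 months, close to DnaJ C.

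Hspa2, an HSP70 best known for its role in male germ cells, had the smallest p of the 59. Its log2 signal, on probe set 1417101_at, was 6.26, 6.16 and 6.32 in the 8-month retinas and 5.84, 5.72 and 5.83 in the 3-month retinas. The lowest older retina lay clear of the highest younger one. The difference was 0.45 ± 0.08 (SE, n = 3 each), a 1.37-fold higher signal at 8 months that did not pass (limma, adjusted p = 0.183). It lay between 0.42 and 0.54 under all 17 alternatives, with adjusted p between 0.100 and 0.664, and it is the 1 measured probe set of this gene.

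Hspa1b, the stress-inducible HSP70, read 11.24, 11.30 and 11.35 at 8 months and 11.05, 11.07 and 10.78 at 3 months on probe set 1452318_a_at (log2 signal). The ages did not overlap, and 3-month retina 3, which is crystallin-rich, was the lowest. The log2 difference was 0.33 ± 0.10 (SE, n = 3 each; limma, adjusted p = 0.266). It was 0.27 without both crystallin-rich retinas. The further measured probe sets of Hspa1b differed by 0.29 ± 0.10 and 0.24 ± 0.17 in the same direction. Hspa1a, its neighbour on chromosome 17 and a nearly identical copy, read 4.69, 5.15 and 5.20 at 8 months and 5.38, 5.16 and 5.13 at 3 months. The ages overlapped there, with a difference of -0.21 ± 0.15 (limma, adjusted p = 0.537) that was -0.046 without 8-month retina 1, the lowest of the 6. Probe sets of so close a pair may read both transcripts, so which gene the higher signal belongs to is uncertain. Hspa1l, the next gene, stayed below the filter.

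Hspa8, the constitutive HSP70 that also strips clathrin from vesicles, read 12.74, 12.83 and 12.84 at 8 months and 12.66, 12.63 and 12.52 at 3 months on probe set 1455789_x_at (log2 signal). Every older retina lay above every younger one, by a narrow margin. The log2 difference was 0.20 ± 0.08 (SE, n = 3 each; limma, adjusted p = 0.318), and the 4 measured probe sets were all higher, by 0.17 to 0.31. With eye side as a covariate it was 0.14.

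The HSP110 genes make exchange factors for HSP70. Hspa4 read 11.62, 11.65 and 11.71 at 8 months and 11.51, 11.61 and 11.05 at 3 months (log2 signal). The older retinas were all higher, but most of the distance came from 3-month retina 3. The log2 difference was 0.27 ± 0.15 (SE, n = 3 each; limma, adjusted p = 0.433), and 0.10 without that retina. Of its other 3 measured probe sets, 1 differed by -0.20. Hsph1 read 12.07, 12.13 and 12.06 at 8 months and 12.13, 11.89 and 11.86 at 3 months, with overlapping ages and a difference of 0.12 ± 0.10 (limma, adjusted p = 0.565). Its other measured probe set differed by -0.26 ± 0.15. Hspa4l had 5 measured probe sets, 4 of them higher by 0.10 to 0.14, while the brightest differed by -0.12.

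The remaining HSP70 genes differed little or unevenly. Hspa9, the mitochondrial HSP70, read 10.02, 10.01 and 9.95 at 8 months and 10.07, 9.98 and 10.01 at 3 months (log2 signal), a difference of -0.03 ± 0.08 (SE, n = 3 each). Hspa5, the endoplasmic reticulum HSP70 known as BiP, read 9.94, 10.11 and 10.12 at 8 months and 10.04, 9.85 and 9.80 at 3 months. Its ages overlapped through retina 1 of each, and the difference was 0.16 ± 0.10 (limma, adjusted p = 0.481), or 0.038 with eye side as a covariate. The other measured probe set of Hspa5, 1427464_s_at, read 9.62, 9.74 and 9.70 at 8 months and 9.56, 9.56 and 9.53 at 3 months, higher without overlap by 0.13 ± 0.08 (limma, adjusted p = 0.435). Hspa13, another HSP70 of that compartment, differed by 0.04. Hspa14, which acts at the ribosome, varied most among younger retinas, at 8.82, 9.34 and 8.48, against 9.25, 9.12 and 9.28 at 8 months. Its log2 difference of 0.33 ± 0.20 was 0.14 without 3-month retina 3 and 0.56 without 3-month retina 2, and its other measured probe sets differed by 0.00 and -0.05. Hspa12a, a distant relative, differed by -0.16, by -0.057 without 8-month retina 1 and by -0.034 without both crystallin-rich retinas, and Hspa12b stayed below the filter.

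Hsp90aa1, the inducible cytosolic HSP90, read 12.58, 12.59 and 12.61 at 8 months and 12.17, 12.52 and 12.11 at 3 months on probe set 1438902_a_at (log2 signal). The older retinas stood together above all younger ones, of which 3-month retina 2 came near. The log2 difference was 0.33 ± 0.12 (SE, n = 3 each), a 1.26-fold higher signal that did not pass (limma, adjusted p = 0.299). Its 5 measured probe sets ranged from -0.04 to 0.33, with 4 higher. Without probe sets whose names end in _s_at, _x_at or _a_at, which can match more than 1 transcript, the brightest differed by 0.08. Hsp90b1, the HSP90 of the endoplasmic reticulum, read 9.27, 9.21 and 9.31 at 8 months and 8.97, 9.22 and 8.79 at 3 months. The ages overlapped by 3-month retina 2, and the difference was 0.27 ± 0.12 (limma, adjusted p = 0.35), or 0.17 without 3-month retina 3. Its other measured probe set was higher by 0.22 ± 0.11. Hsp90ab1 had no probe set that named it alone and so was not analysed here.

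**Figure D2:**
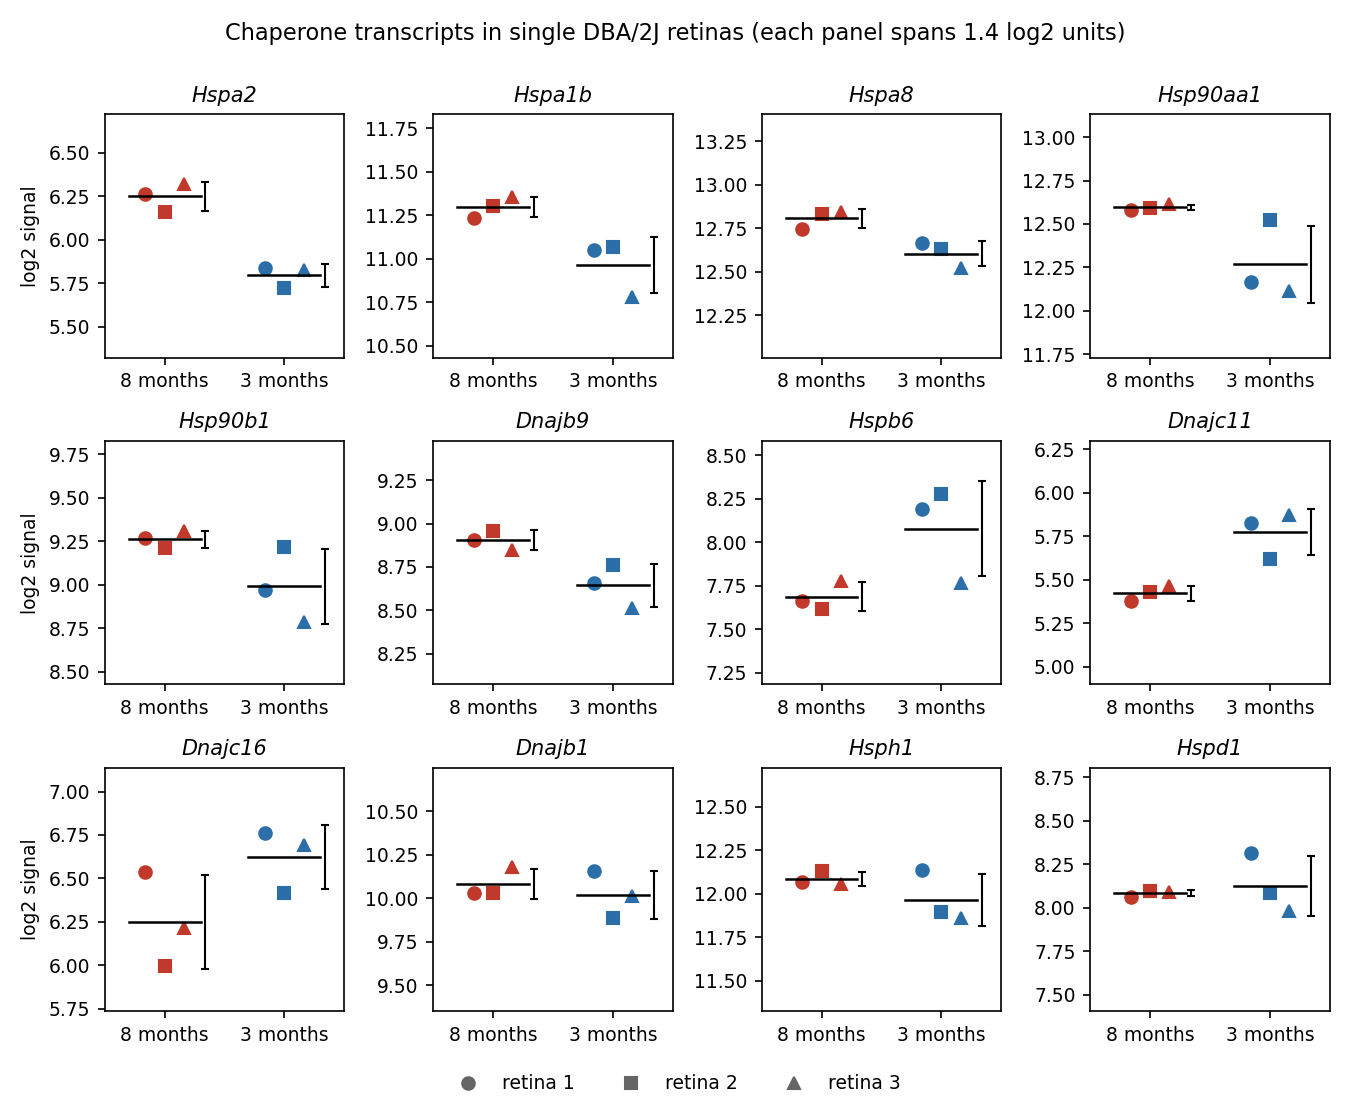
The log2 signal of 12 genes in single retinas, 8 months left and 3 months right in each panel, with the mean as a line and the SD as a bar (n = 3). The points of the ages are apart for Hspa2, Hspa1b, Hspa8, Hsp90aa1, Dnajb9 and Dnajc11, and 3-month retina 3 is the lowest point for Hspa1b, Hspa8, Hsp90aa1, Hsp90b1 and Dnajb9.

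The mitochondrial chaperonin genes, Hspd1 and Hspe1, make the barrel and its lid and are neighbours on chromosome 1. Hspd1 read 8.06, 8.10 and 8.09 at 8 months and 8.32, 8.08 and 7.98 at 3 months (log2 signal), a difference of -0.04 ± 0.10 (SE, n = 3 each; limma, adjusted p = 0.859). Hspe1 read 9.51, 9.53 and 9.54 at 8 months and 9.79, 9.53 and 9.62 at 3 months, a difference of -0.12 ± 0.09 (limma, adjusted p = 0.550). The other measured probe set of Hspe1 differed by -0.23 ± 0.11, and the brightest by -0.048 without 3-month retina 1. In both genes, on the brightest probe set, the older retinas were nearly equal and 3-month retina 1 was the highest of all.

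Of 9 genes with Hspb symbols, 5 were measured, and these include Hspb11 and Hspbp1, which have other roles. Hspb6, a small heat shock protein abundant in muscle, read 7.66, 7.62 and 7.78 at 8 months and 8.19, 8.28 and 7.77 at 3 months (log2 signal). 3-month retina 3 lay among the older retinas and the other younger ones well above them. The log2 difference was -0.39 ± 0.14 (SE, n = 3 each), a 1.31-fold higher signal at 3 months that did not pass (limma, adjusted p = 0.298), and -0.53 without both crystallin-rich retinas. Hspb8, which works with the co-chaperone Bag3, differed by 0.07 with overlapping ages, and by -0.05 without 3-month retina 3. Hspb2, a muscle member, stood at nearly the same value in every retina, from 4.86 to 4.91, and differed by 0.02. So flat a signal may be background, which was not tested. Hspb11, whose product belongs to the transport complex of cilia, read 6.60, 6.72 and 6.65 at 8 months and 6.65, 6.83 and 6.99 at 3 months, with overlap, and differed by -0.17, or by -0.086 without 3-month retina 3. Its other measured probe set differed by 0.098. Hspbp1, the exchange factor, differed by -0.02. Hspb3, a muscle member, lay just under the filter at 3.66 to 4.15, and Hspb7 and Hspb9 stayed at or below 3.35.

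Hspb1, the inducible small heat shock protein of glia and neurons under stress, had no measured probe set. The brighter of its 2 probe sets read 3.90, 3.71 and 3.79 at 8 months and 3.90, 3.77 and 5.21 at 3 months (log2 signal). The raised value was that of the retina richest in lens transcripts, while the other probe set, with 3.80, 3.60 and 3.60 at 8 months and 3.56, 3.54 and 3.74 at 3 months, stayed low there. The alpha crystallins Cryaa and Cryab, small heat shock proteins named otherwise, are the comparison for this. Cryab, a neighbour of Hspb2 on chromosome 9 that glia as well as lens express, read 13.19, 10.38 and 10.42 at 8 months and 10.25, 10.12 and 13.23 at 3 months. Cryaa read 11.32, 3.89 and 4.27 at 8 months and 5.84, 4.21 and 12.27 at 3 months. Cryaa is itself 1 of the 12 lens markers whose average set the crystallin-rich retinas apart, so its height there is no separate result. Both alpha crystallins were highest in the same 2 crystallin-rich retinas, in 1 of which Hspb1 was not raised. Neither passed between ages, with log2 differences of 0.13 ± 1.04 for Cryab and -0.94 ± 2.60 for Cryaa (SE, n = 3 each; limma, adjusted p = 0.964 and 0.881).

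**Figure D3:**
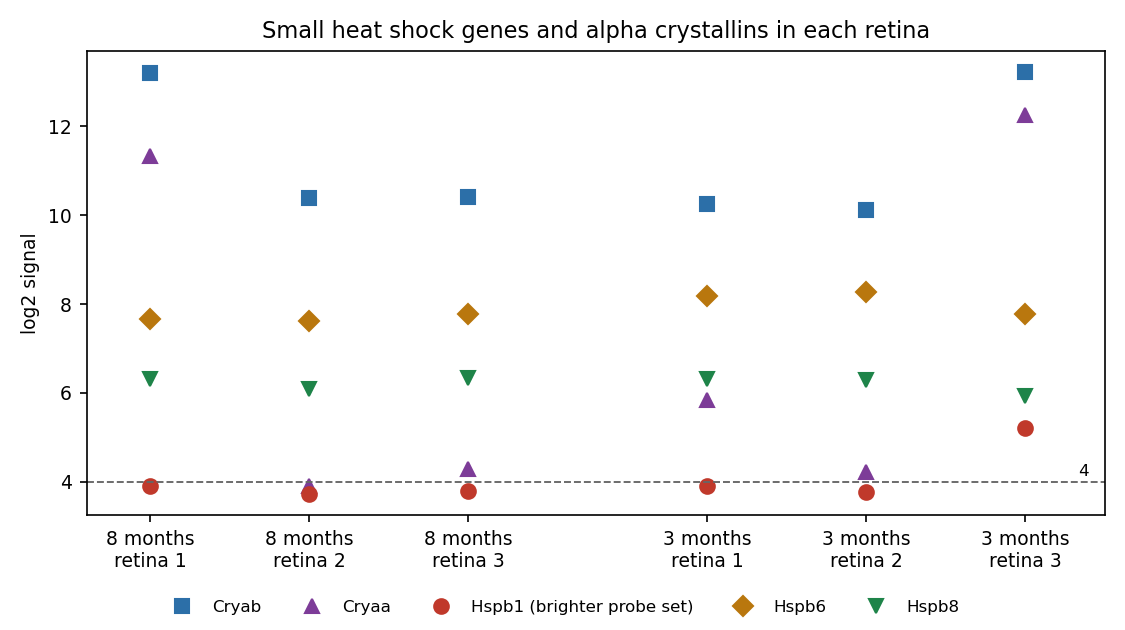
The log2 signal of 3 small heat shock genes and the alpha crystallins in each retina, 8 months left and 3 months right, with the filter level of 4 dashed. Cryab and Cryaa stand high in 8-month retina 1 and 3-month retina 3, Hspb1 exceeds 4 in 3-month retina 3 alone, and Hspb6 is highest in 3-month retinas 1 and 2.

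DnaJ A and B proteins deliver clients to HSP70. Dnajb1, the inducible partner of HSP70, read 10.03, 10.03 and 10.18 at 8 months and 10.16, 9.88 and 10.01 at 3 months (log2 signal), a difference of 0.06 ± 0.10 (SE, n = 3 each; limma, adjusted p = 0.789). The older and younger values were interleaved. Dnajb9, a co-chaperone of BiP, read 8.91, 8.96 and 8.85 at 8 months and 8.66, 8.76 and 8.51 at 3 months. All older retinas lay above the younger ones, with a log2 difference of 0.26 ± 0.09 (limma, adjusted p = 0.289), or 0.19 without both crystallin-rich retinas. Dnajb11, another partner of BiP, read 9.12, 9.13 and 9.10 at 8 months and 9.41, 9.15 and 9.17 at 3 months, below all younger retinas by a small margin, and its difference of -0.13 was -0.046 without 3-month retina 1. Dnajb5 likewise lay lower without overlap, differing by -0.16. It read 6.42 in every older retina, with an SD of 0.00099, and 6.58, 6.70 and 6.45 in the younger ones. Whether the flat older values are a background level was not tested. Its other probe sets, both below the filter, were higher by 0.14 and 0.13. Dnajb2, a neuronal member, differed by -0.01, Dnajb4 by 0.11, Dnajb12 by -0.14 and Dnajb14 by -0.10. The Dnajb12 difference was -0.021 without 3-month retina 3 and -0.0072 without both crystallin-rich retinas, and its other measured probe set differed by 0.11. In the DnaJ A class, the cytosolic Dnaja1 and Dnaja2 differed by 0.04 and 0.08, the mitochondrial Dnaja3 by -0.19 and Dnaja4 by -0.14, with overlapping ages in all 4. The Dnaja3 difference was -0.058 without 3-month retina 1, and its other measured probe set differed by 0.067. Dnajb3, Dnajb7, Dnajb8 and Dnajb13 stayed below the filter, with readings up to 3.71.

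The DnaJ C class joins a J domain to many other functions. Dnajc11, a protein of the mitochondrial membranes, read 5.38, 5.43 and 5.46 at 8 months and 5.83, 5.62 and 5.88 at 3 months (log2 signal). The older retinas lay together below all younger ones. The log2 difference was -0.35 ± 0.09 (SE, n = 3 each; limma, adjusted p = 0.229), and its other measured probe set differed by -0.11 ± 0.13. Dnajc16 read 6.54, 6.00 and 6.21 at 8 months and 6.76, 6.41 and 6.69 at 3 months, with overlap through 8-month retina 1. Its difference of -0.37 ± 0.16 (limma, adjusted p = 0.336) was -0.09 with eye side as a covariate. Dnajc2, which acts at the ribosome with Hspa14, differed by -0.34 ± 0.16, or by -0.19 without 3-month retina 3, Dnajc4 by -0.27 ± 0.12 and Dnajc25 by -0.22 ± 0.11, none passing. In the other direction, Dnajc14, which takes part in receptor trafficking, read 7.74, 7.72 and 7.85 at 8 months and 7.42, 7.70 and 7.53 at 3 months, apart by a small margin (0.22 ± 0.10; limma, adjusted p = 0.35).

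Co-chaperones of the synapse belong to the same class. Dnajc5, the cysteine string protein of synaptic vesicles, read 10.06, 10.04 and 10.21 at 8 months and 10.13, 10.14 and 10.05 at 3 months (log2 signal), level with an SE of 0.08 on its brightest probe set. Dnajc6, auxilin, which recruits HSP70 to clathrin coats, read 11.09, 11.08 and 11.04 at 8 months and 11.28, 11.11 and 11.26 at 3 months. The older retinas lay just below the younger ones, at -0.15 ± 0.08 (SE, n = 3 each; limma, adjusted p = 0.423), and its other measured probe set was higher by 0.32 ± 0.19. Gak, a relative of auxilin named otherwise, read 6.69, 6.86 and 6.81 at 8 months and 7.004, 6.96 and 7.41 at 3 months, a difference of -0.34 ± 0.13 (limma, adjusted p = 0.318). Dnajc13, a protein of endosomes, read 10.17, 10.20 and 9.98 at 8 months and 10.23, 10.01 and 10.55 at 3 months, and its difference of -0.15 was -0.0054 without 3-month retina 3. Dnajc7, a bridge between HSP70 and HSP90, differed by -0.03. The nuclear Dnajc8 and Dnajc9 lay lower without overlap, differing by -0.19 and -0.17. Of the DnaJ C genes not named so far, Dnajc24 lay lowest at -0.16, Dnajc1, of the endoplasmic reticulum, was higher by 0.23 ± 0.15, and Dnajc12, Dnajc22, Dnajc15 and the endoplasmic reticulum reductase Dnajc10 were higher by 0.16, 0.11, 0.05 and 0.03. Dnajc30 differed by 0.02, Dnajc21, which takes part in ribosome maturation, by -0.01, Dnajc28 by -0.08, Dnajc18 by -0.09 and Dnajc27 by -0.12. Dnajc5b and Dnajc5g, the relatives of Dnajc5, stayed below the filter.

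Probe sets of 1 gene often disagreed. Of 36 genes with more than 1 measured probe set, 18 held differences of both signs and 3 spanned over 0.5 on the log2 scale, with a median span of 0.20. Over all 120 measured probe sets 65 were higher, against 40.6% of all measured probe sets. Unadjusted limma p-values under 0.05 numbered 9 higher, where all probe sets gave 4.63%, and 5 lower, where they gave 10.3%, and 0 passed the adjusted test, against 0.00477%.

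Dnajc3, a BiP co-chaperone that also restrains the kinase PERK, held the smallest p of all 120. Probe set 1419162_s_at read 7.11, 7.14 and 6.92 at 8 months and 6.48, 6.56 and 6.55 at 3 months (log2 signal), far apart by age, with a difference of 0.52 ± 0.09 (SE, n = 3 each; limma, adjusted p = 0.177). Its brightest probe set read 9.74, 9.69 and 9.50 at 8 months and 9.54, 9.77 and 9.53 at 3 months, overlapping, with a difference of 0.03 ± 0.11. The other 3 differed by 0.37, 0.15 and -0.24. Dnajb6, known for holding back polyglutamine aggregates, was level on its brightest probe set at 0.03 ± 0.07. Probe set 1434035_at of Dnajb6 read 6.30, 6.17 and 6.46 at 8 months and 6.51, 6.78 and 6.71 at 3 months, lower without overlap. Probe set 1429776_a_at read 7.45, 7.06 and 7.14 at 8 months and 7.05, 6.97 and 6.60 at 3 months, higher but almost touching. Dnaja2 showed 6.88, 7.02 and 7.09 at 8 months and 7.41, 7.29 and 7.36 at 3 months on 1417182_at, a difference of -0.36 ± 0.09 (limma, adjusted p = 0.223), beside 0.08 on its brightest. Dnajc17, a splicing-related member, ranged from -0.50 to 0.34 over 3 probe sets.

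**Figure D4:**
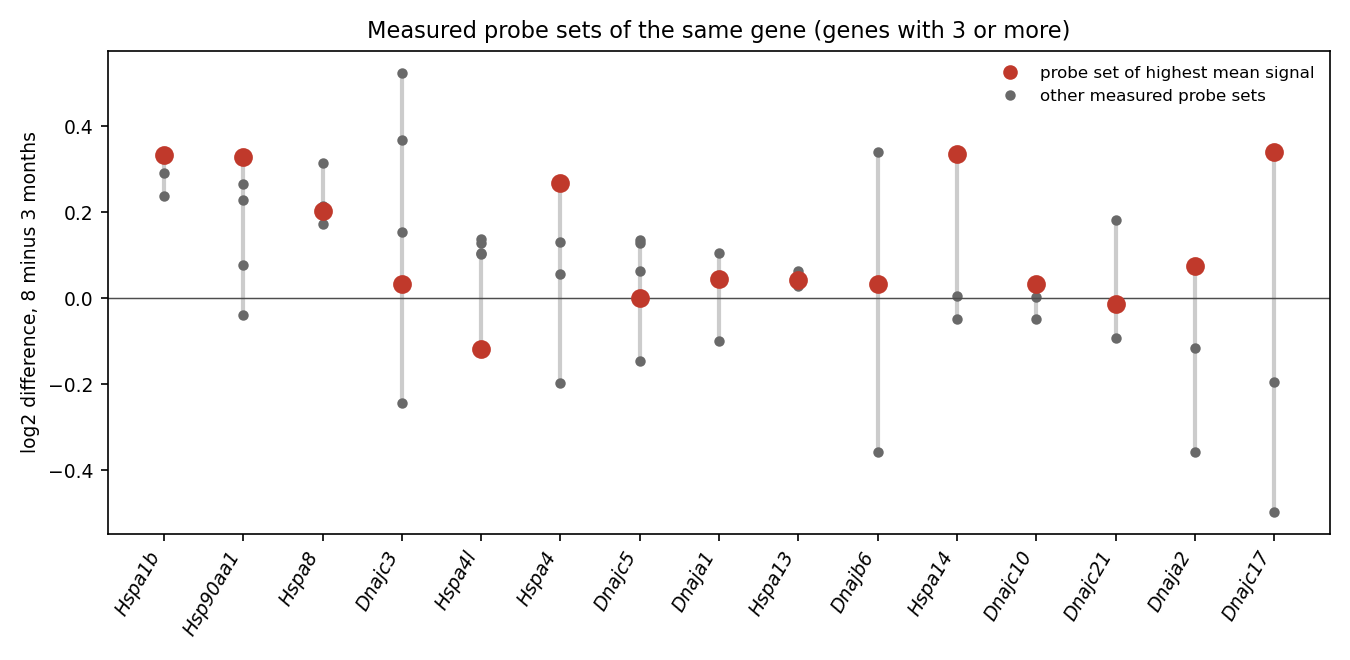
The log2 difference, 8 months minus 3 months, of each measured probe set for genes with 3 or more, joined by a grey bar per gene, with the brightest probe set in red. All points lie above 0 for Hspa1b, Hspa8 and Hspa13, whereas Dnajc17, Dnajc3, Dnajb6 and Dnaja2 hold points on both sides.

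The partners of the chaperones were taken from 62 further genes, of which 50 were measured, 16 higher and 34 lower, with a median log2 difference of -0.089 and 0 passing (limma, smallest adjusted p = 0.223). Unadjusted limma p-values under 0.05 were found for 3 higher and 3 lower, which is 6% each way, against 3.58% and 11.5% of all genes. The 3 higher ones are HSP90 co-chaperones, of which 16 were measured. Chordc1, which binds HSP90, read 9.32, 9.44 and 9.40 at 8 months and 9.11, 9.004 and 8.76 at 3 months (log2 signal), a difference of 0.43 ± 0.11 (SE, n = 3 each; limma, adjusted p = 0.223). Ahsa2, a relative of the activator of the HSP90 ATPase, read 8.30, 8.37 and 8.54 at 8 months and 8.09, 8.16 and 8.03 at 3 months, a difference of 0.31 ± 0.09 (limma, adjusted p = 0.258). Cdc37l1, a relative of the kinase adaptor Cdc37, differed by 0.28 ± 0.09 (limma, adjusted p = 0.268). Older retinas lay above younger ones in all 3, but these were picked for a small unadjusted p, so this adds no support. The 16 genes had a median of -0.057, beside -0.058 over all genes, and the rest of that list was 4 higher and 9 lower.

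The other partner groups are read against all genes, of which 36.5% were higher with a median of -0.058. Among 12 measured genes of HSP70 exchange and handover, 3 were higher and 9 lower, and Stip1, which links HSP70 to HSP90, read 6.92, 7.01 and 6.93 at 8 months and 7.20, 7.14 and 7.12 at 3 months (log2 signal), a difference of -0.20 ± 0.08 (SE, n = 3 each; limma, adjusted p = 0.302). Among 14 measured subunits of the TRiC chaperonin and prefoldin, which fold actin and tubulin, 4 were higher and 10 lower, with a median of -0.13. Pfdn4 had the smallest p of these, at -0.37 ± 0.14 (limma, adjusted p = 0.305). The mitochondrial HSP90, Trap1, and the endoplasmic reticulum HSP110, Hyou1, differed by -0.28 ± 0.13 and -0.11 ± 0.08. Of 5 heat shock factor genes and regulators, Hsbp1 alone was measured, at -0.02, and Hsf2, Hsf4 and Hsf2bp lay below the filter. Hsf1 had no probe set that named it alone and so was not assessed.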

How the data were processed

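RNA of 6 whole retinas was amplified, biotin-labelled and hybridised to Affymetrix mouse arrays, per the labels' protocols. The authors deposited log2 signals per probe set, and the submitters' processing notes name GCRMA 1.1.0 and R 1.9.0. GCRMA gathers weak signals near its background level, which can shrink differences of dim genes. Its options are not given in the sources used here, and the number of arrays limits the precision.

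After removing 64 control probe sets, 20973 probe sets, 46.6%, passed the filter and entered a two-sided limma fit without covariates (lmFit, then eBayes; limma 3.58.1, R 4.3.3; threshold 0.05). The fit was tested on simulated data. A gene was read by its measured probe set of highest mean; 3 probe sets naming several genes were left out, and 71 of 71 gene identifiers matched GRCm38.p6. An exact permutation test of 3 against 3 cannot go below 0.1 and was not used. Members, lists and tests were chosen with earlier results of these data known. Genes were named as up to 4 of smallest p and 2 brightest per class, a list of well-studied members, the 5 of largest residual SD and those whose probe sets disagreed; partner genes as up to 4 of smallest p per list. Dnajc1, Dnajc8, Dnajc9, Dnajc12, Dnajc15, Dnajc18, Dnajc22, Dnajc24, Dnajc25, Dnajc27, Dnajc28, Dnajc30 and most genes below the filter were named beyond that rule, after their values were seen. Signals of different probe sets are not comparable as amounts. Alternatives were other filters, scalings, probe set choices and samples, eye side, the replicate block and an intensity trend.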

Additional observations from a re-analysis of the deposited data

How the results depend on the processing

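Across 17 alternatives, 0 heat shock or DnaJ genes passed the adjusted test, with smallest limma adjusted p from 0.100 to 0.664. The median log2 difference of -0.015 was 0.020 with quantile normalization, 0.069 with median centring and 0.032 with cyclic loess, so its sign turned under all 3 scalings, and it lay between -0.040 and 0.001 when 1 retina was left out. The number higher at an unadjusted p under 0.05 was 5; it was 8 with median centring, 2 without probe sets ending in _s_at, _x_at or _a_at, 2 without both crystallin-rich retinas and 1 with eye side as a covariate. Leaving out 1 retina gave 2 to 9, the lowest without 8-month retina 2 and the highest without 3-month retina 2, and 3 without 8-month retina 1, 8-month retina 3 or 3-month retina 3. The number lower was 2; it was 1 with quantile normalization, median centring or cyclic loess, and 1 to 6 with 1 retina left out, the lowest without 8-month retina 2, the highest without 3-month retina 2, and 4 without 3-month retina 1. All measured genes moved too. Their median log2 difference of -0.058 was -0.018 with quantile normalization, 0.025 with median centring and -0.014 with cyclic loess. Of all genes, 3.58% were higher at an unadjusted p under 0.05. This share was 8.54% with median centring, 1.899% without both crystallin-rich retinas and 6.1% without 3-month retina 2. Without 3-month retina 1 the share lower fell from 11.5% to 8.84%, while the number of heat shock and DnaJ genes lower rose. The cause of these shifts was not tested. The replicate block gave 4 higher and 5 lower with 0 passing. Deviations of same-numbered retinas from their age means had correlations of -0.14, 0.06 and -0.28, so no pairing by number was seen. Whether same-numbered arrays shared a batch was not tested. Of 47 named measured genes, 29 kept their sign in every alternative in which they were measured (15 to 17; 12 genes missed 1 or 2), Hspa2, Hspa1b, Hspa8, Hsp90aa1 and Dnajb9 among them, and 18 did not, all close to level or with probe sets of both signs.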
